A study of Mus musculus with 6 samples.

Results

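The genes described here are Bhlhe40 and 9 genes of the circadian clock, Bhlhe41, Per1, Per2, Cry1, Cry2, Nr1d1, Nr1d2, Dbp and Clock. They were chosen by name, and all 10 were among the 16503 genes of the table. They were measured by RNA-seq in liver macrophages of WT mice given CDA-HFD, a high-fat diet that lacks choline, supplies protein as defined amino acids and induces metabolic dysfunction-associated steatohepatitis (MASH). CD11chiMinclehi macrophages (3 libraries) were compared with CD11cloMinclelo macrophages (3 libraries). Both groups were sorted from CD11b+Ly6CloF4/80+ cells, the monocyte-derived macrophages of the liver, after cells with Tim4 or with CD90.2, B220, NK1.1, SiglecF or Ly6G, which mark other leukocytes, had been gated out, and separated by the CD11c and Mincle on their surface. All 6 libraries therefore shared genotype and diet, and the comparison holds no mice on a normal diet. The mice of the study's MASH model were male and were 6 to 12 weeks old when the diet began. The macrophages used for RNA-seq were taken after 7 weeks on this diet. The titles call the libraries biological replicates 1 to 3 of each group. Neither the mice behind them nor the time of day at which livers were taken is given in the sources used here, so p-values measure the spread between these libraries.

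The circadian clock is a feedback loop of transcription that runs in most cells, macrophages included. CLOCK and BMAL1 (the product of Arntl) bind E-boxes and switch on the Per, Cry, Nr1d and Bhlhe4 genes. PER and CRY proteins then hold CLOCK and BMAL1 back, BHLHE40 and BHLHE41 occupy the same E-boxes as repressors, and the REV-ERB proteins encoded by Nr1d1 and Nr1d2 shut down Arntl through RORE elements. Bhlhe40 is also induced by immune stimuli and by low oxygen, and in macrophages it is known as a repressor of Il10.

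RefSeq promoter windows (GRCm38.p6, 250 bases before to 50 bases after a start) were held for 8 of the 10 genes, all but Bhlhe40 and Per2. The letters of the E-box (CACGTG), the related E-prime box (CACGTT), the D-box (TTATGTAA) and the RORE (TAGGTCA) were searched on both strands, and no match overlapped another in the windows of these 8 genes. The E-box was found in 3 of the 8 genes, Bhlhe41, Per1 and Cry1, and in 8.09% of the 27025 genes with a window. The E-prime box was found in Cry1, Cry2 and Nr1d1, and in 5.44% of all genes. The D-box and the RORE were found in 0 of the 8 genes, against 1.11% and 2.97% of all genes. Among 11 other core clock genes with a window, the E-box was found in Ciart and Tef, and the E-prime box in Rorb. In the same 11 genes, the RORE was found in Arntl and Nfil3, and the D-box in Per3 and Timeless. Counted from the start site, the E-box began at position -153 in Bhlhe41, -166 in Per1 and -60 in Cry1. The E-prime box began at position -79 in Cry1, -166 in Cry2 and -28 in Nr1d1. These matches describe letters in a window and not sites bound in these cells. The 250 bases before the start are shown for the 5 genes with a match, because these are the elements through which CLOCK, BMAL1 and BHLHE40 are known to act. They read 5′ to 3′ on the strand of the gene, with the E-box or E-prime box (or its reverse complement) in capitals.
Bhlhe41 (chr6:145865421-145865670, minus strand): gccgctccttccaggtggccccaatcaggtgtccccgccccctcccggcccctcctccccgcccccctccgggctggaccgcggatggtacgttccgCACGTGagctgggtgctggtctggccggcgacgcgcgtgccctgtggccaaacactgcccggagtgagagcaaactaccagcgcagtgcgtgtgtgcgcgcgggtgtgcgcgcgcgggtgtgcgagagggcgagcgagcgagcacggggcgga
Per1 (chr11:69098699-69098948, plus strand): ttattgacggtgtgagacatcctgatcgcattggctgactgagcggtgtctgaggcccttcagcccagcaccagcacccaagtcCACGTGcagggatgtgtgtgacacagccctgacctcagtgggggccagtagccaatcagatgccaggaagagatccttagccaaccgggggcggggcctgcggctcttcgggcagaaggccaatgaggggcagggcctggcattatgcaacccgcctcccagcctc
Cry1 (chr10:85185055-85185304, minus strand): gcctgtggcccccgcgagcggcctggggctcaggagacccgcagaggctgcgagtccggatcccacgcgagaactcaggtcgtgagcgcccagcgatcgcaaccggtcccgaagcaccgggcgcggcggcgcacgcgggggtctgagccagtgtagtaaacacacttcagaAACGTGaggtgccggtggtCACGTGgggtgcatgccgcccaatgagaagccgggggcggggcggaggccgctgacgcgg
Cry2 (chr2:92434070-92434319, minus strand): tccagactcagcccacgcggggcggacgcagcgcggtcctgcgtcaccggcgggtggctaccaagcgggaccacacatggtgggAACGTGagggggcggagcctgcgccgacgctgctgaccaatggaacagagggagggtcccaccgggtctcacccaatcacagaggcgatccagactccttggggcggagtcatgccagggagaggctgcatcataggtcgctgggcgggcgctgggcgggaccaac
Nr1d1 (chr11:98775378-98775627, minus strand): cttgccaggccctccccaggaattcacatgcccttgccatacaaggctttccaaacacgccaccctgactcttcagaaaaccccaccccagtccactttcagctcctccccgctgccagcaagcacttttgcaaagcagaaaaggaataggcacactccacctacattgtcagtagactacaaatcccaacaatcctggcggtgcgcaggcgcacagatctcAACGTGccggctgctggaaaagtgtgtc

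Bhlhe40 was higher in CD11chiMinclehi macrophages, and it was the only one of the 10 genes called, meaning a Benjamini-Hochberg adjusted p under 0.05 in limma over all 16503 genes. Bhlhe41 was higher in every CD11chiMinclehi library too, by a larger fold that just missed the threshold. Per2, Cry2 and Nr1d1 had lower means in CD11chiMinclehi macrophages, with none of the 3 called, while Per1, Cry1, Dbp, Nr1d2 and Clock showed smaller or less even differences. Of all genes, 1.22% were called, 0.77% as higher and 0.454% as lower. A single called gene is no statement about the 10 as a group. The median log2 fold change of the 10 genes was -0.04, against -0.01 over all genes. In bulk samples, fewer cells with a transcript and less of it per cell cannot be told apart.

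Bhlhe40 encodes the repressor also called DEC1. It was measured at 310.5, 309 and 283 TPM (a share of the reads adjusted for gene length) in the CD11chiMinclehi libraries 1, 2 and 3. In the CD11cloMinclelo libraries it was at 188, 235 and 204 TPM. Every CD11chiMinclehi library lay above every CD11cloMinclelo library, and the gap between the groups was slightly wider than the range within either. Bhlhe40 averaged 300.7 ± 15.6 TPM in CD11chiMinclehi macrophages and 209 ± 23.9 TPM in CD11cloMinclelo macrophages (SD, n = 3 each), a ratio of means of 1.44. The log2 fold change on the log2(TPM + 1) scale, CD11chiMinclehi minus CD11cloMinclelo, was 0.53 ± 0.09 (SE), with a 95% interval from 0.33 to 0.73 and an adjusted p of 0.0356 in limma. An estimated 1502 to 2692 reads per library lay behind these values, so counting error was small beside the spread between libraries. The fold was stable and the call was not. The adjusted p rose to 0.162 without CD11chiMinclehi replicate 1, 0.119 without replicate 2 and 0.0708 without replicate 3, and to 0.0884 without CD11cloMinclelo replicate 1 and 0.136 without replicate 3. Without CD11cloMinclelo replicate 2 it was 0.038, and over the 6 such fits the log2 fold change ran from 0.46 to 0.61.

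Bhlhe41 encodes DEC2, the close relative of DEC1 that binds the same E-box. It was at 17.9, 17.3 and 23.0 TPM in the CD11chiMinclehi libraries, against 7.82, 8.02 and 6.52 TPM in the CD11cloMinclelo libraries. The groups did not overlap, and the gap between them was wider than the range within either. The means were 19.4 ± 3.13 TPM in CD11chiMinclehi macrophages and 7.45 ± 0.812 TPM in CD11cloMinclelo macrophages (n = 3 each), a ratio of 2.61. Its log2 fold change of 1.27 ± 0.24 (95% interval 0.72 to 1.81) had an adjusted p of 0.052 in limma. It was called only when genes under a mean of 5 TPM were left out, at an adjusted p of 0.0447. Bhlhe41 rested on an estimated 74 to 286 reads per library.

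Among the PER genes, whose proteins form the repressor complex that resets the loop, Per1 and Per2 did not share a pattern. Per1 was at 43.0, 46.8 and 35.8 TPM in CD11chiMinclehi libraries and at 40.2, 41.0 and 35.6 TPM in CD11cloMinclelo libraries. These ranges overlapped, and the log2 fold change was 0.10 ± 0.14 with an interval from -0.23 to 0.43 (adjusted p = 0.856, limma). Per1 is also an immediate-early gene, which acute stimuli switch on outside the daily cycle. Per2 was at 6.23, 2.97 and 8.89 TPM in CD11chiMinclehi libraries, against 10.2, 11.3 and 15.8 TPM in CD11cloMinclelo libraries. All CD11chiMinclehi values lay below all CD11cloMinclelo values. The means were 6.03 ± 2.97 TPM in CD11chiMinclehi macrophages and 12.5 ± 2.98 TPM in CD11cloMinclelo macrophages, and the log2 fold change was -1.01 ± 0.40 (95% interval -1.93 to -0.09), with an adjusted p of 0.329 in limma. The lowest value, in CD11chiMinclehi library 2, rested on an estimated 30 reads, for which the exact 95% Poisson interval was 2.00 to 4.24 TPM. The lowest CD11cloMinclelo value, in library 1, rested on 101 reads and had an interval of 8.32 to 12.4 TPM. Both intervals cover counting error only.

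The CRY genes encode the partners of PER that do most of the repression of CLOCK and BMAL1. Cry1 was at 49.9, 36.8 and 46.2 TPM in CD11chiMinclehi libraries and at 48.5, 60.1 and 52.8 TPM in CD11cloMinclelo libraries. Library 1 of the CD11chiMinclehi group lay above library 1 of the CD11cloMinclelo group, and the other pairs ran the other way. The log2 fold change of Cry1 was -0.28 ± 0.15 (interval -0.63 to 0.07, adjusted p = 0.495, limma). Cry2 was at 14.8, 16.1 and 15.7 TPM in CD11chiMinclehi libraries, against 17.9, 23.6 and 27.4 TPM in CD11cloMinclelo libraries. The groups did not overlap, and the CD11cloMinclelo libraries were much more spread out, with an SD of 4.77 TPM against 0.678 TPM in the CD11chiMinclehi libraries. Cry2 had a log2 fold change of -0.52 ± 0.21 (interval -1.01 to -0.04) and an adjusted p of 0.345 in limma.

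Nr1d1 and Nr1d2 encode REV-ERB-alpha and REV-ERB-beta, nuclear receptors for heme that repress transcription. Nr1d1 was at 17.6, 15.7 and 25.8 TPM in CD11chiMinclehi libraries, against 26.9, 25.6 and 40.9 TPM in CD11cloMinclelo libraries. The groups overlapped by a single library on each side, the third CD11chiMinclehi and the second CD11cloMinclelo library. Compared number by number, Nr1d1 was lower in all 3 CD11chiMinclehi libraries by nearly the same step, with log2 differences of -0.59, -0.67 and -0.65. Its log2 fold change was -0.64 ± 0.26 (interval -1.23 to -0.04) with an adjusted p of 0.347 in limma. With the replicate number as a block the adjusted p was 0.0993, which did not change the call. Nr1d1 shares 1075 bases with Thra, the thyroid hormone receptor gene on the opposite strand, and whether the counting used strand is not given in the sources used here. Thra was at 7.91, 7.85 and 8.04 TPM in CD11chiMinclehi libraries and at 14.4, 9.57 and 12.2 TPM in CD11cloMinclelo libraries, with a log2 fold change of -0.53 ± 0.26 (adjusted p = 0.454, limma). How reads of the shared stretch were assigned is therefore not known, and its effect on the values of either gene was not tested. Nr1d2 was at 49.9, 41.2 and 58.8 TPM in CD11chiMinclehi libraries and at 53.3, 51.0 and 47.9 TPM in CD11cloMinclelo libraries. The CD11chiMinclehi libraries of Nr1d2 enclosed the CD11cloMinclelo libraries, and the log2 fold change was -0.03 ± 0.15 (interval -0.37 to 0.31, adjusted p = 0.965, limma).

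Dbp encodes an activator of D-box genes and is among the transcripts that swing most over the day in liver. It was at 15.1, 16.6 and 22.3 TPM in CD11chiMinclehi libraries and at 8.67, 13.9 and 20.6 TPM in CD11cloMinclelo libraries. Each CD11chiMinclehi library lay above the CD11cloMinclelo library of its number, yet the ranges overlapped widely. The log2 fold change was 0.36 ± 0.33 (interval -0.39 to 1.12, adjusted p = 0.732, limma). Dbp shares 737 bases with Sphk2, a sphingosine kinase gene on the opposite strand that was far more abundant, at 67.3 to 70.9 TPM in CD11chiMinclehi libraries and 64.9 to 70.0 TPM in CD11cloMinclelo libraries. Clock, which encodes the activator itself and is known to vary little over the day, was at 21.7, 16.2 and 16.8 TPM in CD11chiMinclehi libraries and at 16.9, 21.5 and 18.1 TPM in CD11cloMinclelo libraries. The ranges nearly coincided, and the log2 fold change was -0.05 ± 0.20 (interval -0.52 to 0.42, adjusted p = 0.961, limma). Intervals of this width leave room for moderate differences in either direction. By gene spans, introns included, Bhlhe40 shares 306 bases with 0610040F04Rik, Bhlhe41 1876 with Gm43909 and Cry2 23417 with D930015M05Rik, all on the opposite strand. Clock shares 459 bases with the pseudogene Ube2n-ps1 on its own strand. Ube2n-ps1 was at 55.3 to 58.8 TPM in CD11chiMinclehi and 56.8 to 63.0 TPM in CD11cloMinclelo libraries. The effect of these overlaps, and of that of Dbp, was not tested.

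**Figure D1:**
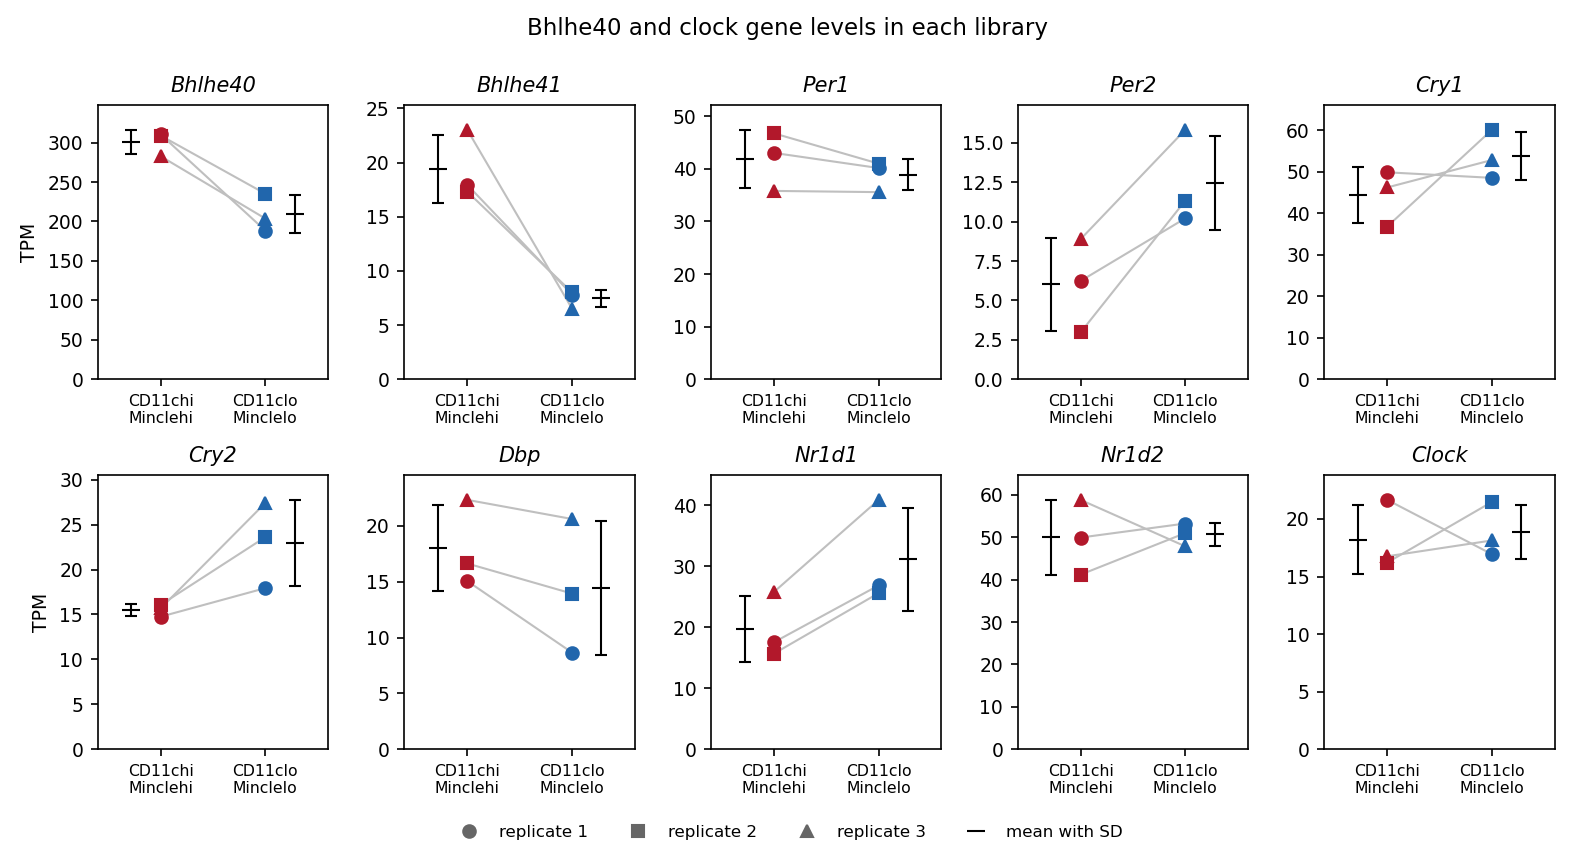
Level in TPM (vertical axes, each from 0) of the 10 genes in each CD11chiMinclehi library (red, left) and each CD11cloMinclelo library (blue, right), with symbols for the replicate number, grey lines joining equal numbers and bars for mean and SD (n = 3). The CD11chiMinclehi libraries lie above all CD11cloMinclelo libraries for Bhlhe40 and Bhlhe41 and below all of them for Per2 and Cry2.

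Subsets without any overlap between their libraries were seen for 4 of the 10 genes, Bhlhe40 and Bhlhe41 on the higher side and Per2 and Cry2 on the lower side, against 18.5% of all genes. An unadjusted p under 0.05 in limma was reached by 5 of the 10, against 12.9% of all genes. Those higher in CD11chiMinclehi macrophages were Bhlhe40 and Bhlhe41, where 6.44% of all genes reached that level on the higher side. Those lower were Per2, Cry2 and Nr1d1, where 6.45% of all genes did on the lower side. With the replicate number as a block, 1 of the 10 genes was called, Bhlhe40 at an adjusted p of 0.0135, against 3.42% of all genes. The unadjusted count in that fit was 5 of the 10, against 16.6% of all genes.

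Bhlhe40 stood far above the other 9 genes in level. It averaged 255 TPM over the 6 libraries and ranked 742 of the 16503 genes. Its lowest library exceeded the highest library of any other of these genes. Nr1d2 came next at 50.3 TPM, 5.06-fold below Bhlhe40, followed by Cry1 at 49.1, Per1 at 40.4, Nr1d1 at 25.4, Cry2 at 19.2, Clock at 18.5, Dbp at 16.2, Bhlhe41 at 13.4 and Per2 at 9.24 TPM. From Nr1d2 down, the ranges of neighbours in this order overlapped, so only the place of Bhlhe40 was clear of the spread. Bhlhe40 was 27.6-fold above Per2. On this scale DEC1 transcripts outnumbered those of DEC2 in both subsets. PCR duplicates had been removed before counting, which lowers abundant genes most, and its effect on these levels was not tested.

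The order of the libraries by replicate number was compared between the groups, since clock transcripts swing with the time of day. Dbp, Nr1d1 and Per2 were highest in library 3 of both groups, and Per1 was highest in library 2 of both. The order of the 3 numbers was the same in both groups for Per1, Dbp and Nr1d1, that is for 3 of the 10 genes, against 23.2% of all genes. The same number was highest in both groups for 4 of the 10, against 40.9% of all genes. By these counts the clock genes followed the replicate number about as often as other genes did. Deviations from the group means over the 10 genes correlated at 0.37, 0.51 and 0.61 for equal numbers 1, 2 and 3. Over all genes these correlations were 0.36, 0.20 and 0.12. For unequal numbers they ran from -0.75 to 0.43 over the 10 genes. Correlations over 10 genes are loosely determined, and their difference from those over all genes was not tested. In a limma fit with subset and replicate number as terms, the moderated F test of the number called 0 of the 10 genes after adjustment, against 0.933% of all genes. Without adjustment 1 of the 10 passed, Nr1d1, against 13.1% of all genes. The adjusted p for the number was 0.289 for Nr1d1, 0.387 for Dbp and 0.552 for Per2. The time at which each library was sampled is not given, and other features moved with the number too. The summed level of 7 T and NK cell markers was 16.5, 313 and 113 TPM in CD11chiMinclehi libraries 1, 2 and 3, and 14.7, 484 and 158 TPM in the CD11cloMinclelo libraries. The sort gated out cells with CD90.2 or NK1.1, which T and NK cells carry. The part of time of day or of other cells in the spread of the clock genes was not tested.

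The rest of the core clock gave no called gene. Of 11 further core genes 7 were in the table, 0 rose and 0 fell, with 1 at an unadjusted p under 0.05 in limma, against 12.9% of all genes. Their median log2 fold change was -0.19, with 6 of 7 below 0. Arntl, the gene of BMAL1 and the partner without which CLOCK does not work, was at 29.5, 35.3 and 37.6 TPM in CD11chiMinclehi libraries and at 41.4, 33.3 and 43.1 TPM in CD11cloMinclelo libraries. Those ranges overlapped, and the log2 fold change of Arntl was -0.20 ± 0.16 (adjusted p = 0.706, limma). Nfil3, the repressor that competes with DBP at D-boxes, was the most abundant at 337, 341 and 268 TPM in CD11chiMinclehi libraries and 270, 260 and 223 TPM in CD11cloMinclelo libraries. Nfil3 was higher in each CD11chiMinclehi library than in the CD11cloMinclelo library of its number, although the groups overlapped. Its log2 fold change was 0.32 ± 0.11 with an adjusted p of 0.251 in limma, and with the replicate number as a block the adjusted p was 0.0188. Tef, a D-box activator of the DBP family, averaged 59.1 ± 14.1 TPM in CD11chiMinclehi macrophages and 61.8 ± 17.2 TPM in CD11cloMinclelo macrophages (adjusted p = 0.964, limma). Per3, Rora, Ciart and Timeless all averaged under 20 TPM in both groups, and none was called.

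Among 19 of 20 listed modifiers and cofactors of clock proteins, 0 rose and 0 fell. An unadjusted p under 0.05 in limma was reached by 3 of the 19, Cipc, Usp2 and Btrc, against 12.9% of all genes. The groups did not overlap for 4 of the 19, against 18.5% of all genes. Btrc, at a log2 fold change of 0.38 ± 0.16, was not called in either fit. The median log2 fold change of the 19 genes was 0.07. The most abundant, Ddb1 (an adaptor of CRY1 degradation), Csnk1d (the kinase that marks PER proteins) and Nono (a partner of PER), had log2 fold changes of 0.07, -0.04 and -0.02. A pair of genes was called only with the replicate number as a block. Cipc, which encodes an inhibitor of CLOCK, was at 72.2, 71.8 and 64.7 TPM in CD11chiMinclehi libraries, against 46.3, 51.6 and 39.6 TPM in CD11cloMinclelo libraries. The groups did not overlap, and the log2 fold change of Cipc was 0.60 ± 0.13 (adjusted p = 0.0739 in limma, and 0.0344 with the block). Usp2, which encodes a deubiquitinase of clock proteins, was at 32.0, 25.6 and 37.7 TPM in CD11chiMinclehi libraries, against 54.6, 48.6 and 52.0 TPM in CD11cloMinclelo libraries. Here too the groups did not overlap, on the lower side, with a log2 fold change of -0.70 ± 0.16 (adjusted p = 0.1 in limma, and 0.0485 with the block).

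**Figure D2:**
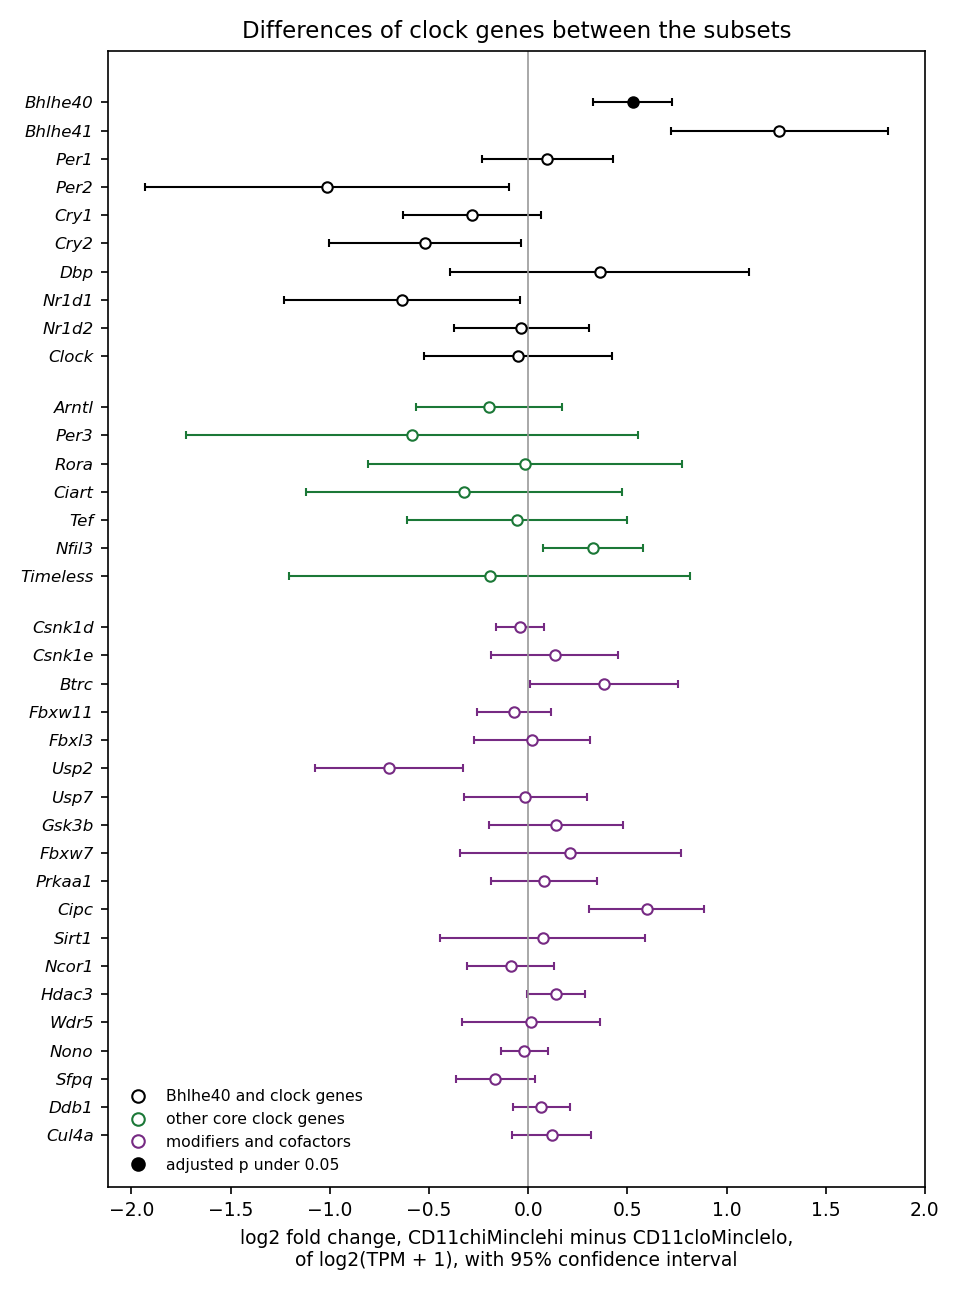
Log2 fold change, CD11chiMinclehi minus CD11cloMinclelo on the log2(TPM + 1) scale, with its 95% confidence interval (horizontal axis), for the 10 genes (black), 7 other core clock genes (green) and 19 modifiers and cofactors (purple), n = 3 libraries per group. Bhlhe40, at 0.53, is the only filled symbol, which marks an adjusted p under 0.05 without the replicate block.

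Genes that BHLHE40 is known to repress in macrophages were examined next. Of the 2 such genes described, 0 rose and 0 fell. Both had a lower mean in CD11chiMinclehi macrophages with an unadjusted p under 0.05 in limma, which 6.45% of all genes reached on the lower side. They are too few to stand for the genes that BHLHE40 represses. Il10, the gene of the anti-inflammatory cytokine IL-10, was at 46.4, 23.8 and 50.3 TPM in CD11chiMinclehi libraries, against 77.4, 50.9 and 93.1 TPM in CD11cloMinclelo libraries. The groups were separated by less than 1 TPM, but Il10 was lower by a similar proportion in each numbered pair. Its log2 fold change was -0.89 ± 0.32 with an adjusted p of 0.284 in limma, and 0.0135 with the replicate number as a block. Maf, a transcription factor of mature macrophages, was at 35.6, 24.8 and 36.4 TPM in CD11chiMinclehi libraries, against 60.7, 54.2 and 45.1 TPM in CD11cloMinclelo libraries. The groups did not overlap, and the log2 fold change of Maf was -0.72 ± 0.19 (adjusted p = 0.144 in limma, and 0.0868 with the block).

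Genes known as targets of REV-ERB repression all had lower means in CD11chiMinclehi macrophages. Of these 5 genes, 0 rose and 1 fell, against 0.77% and 0.454% of all genes. On the lower side 4 had an unadjusted p under 0.05 in limma, against 6.45% of all genes. The median log2 fold change was -0.27. Mmp9 was not among the 4, at -0.14 ± 0.87, and its libraries overlapped between the groups. A list of 5 genes is too short to stand for the targets of REV-ERB. Ccl2, which encodes the chemokine that draws monocytes, was at 88.1, 78.0 and 109.6 TPM in CD11chiMinclehi libraries, against 244, 211 and 251 TPM in CD11cloMinclelo libraries. The groups were far apart, and Ccl2 fell with a log2 fold change of -1.36 ± 0.13 (adjusted p = 0.00834, limma). Cx3cr1, the fractalkine receptor, averaged 305 ± 32.6 TPM in CD11chiMinclehi macrophages and 369 ± 40.4 TPM in CD11cloMinclelo macrophages, with an adjusted p of 0.304 in limma and 0.0297 with the block. Il6, Nlrp3 and Mmp9 were not called in either fit.

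**Figure D3:**
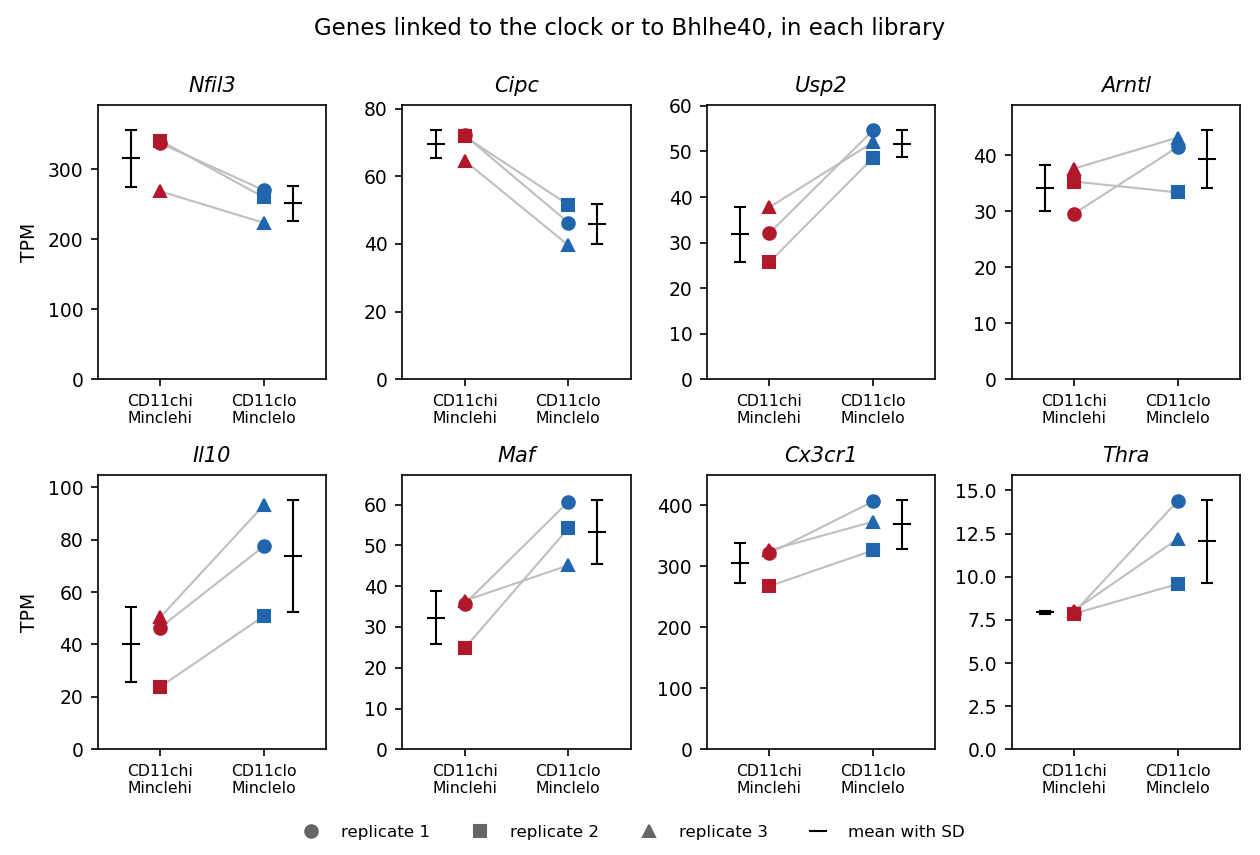
Level in TPM (vertical axes, each from 0) of 8 genes linked to the clock or to Bhlhe40 in each CD11chiMinclehi library (red, left) and each CD11cloMinclelo library (blue, right), with symbols for the replicate number, grey lines joining equal numbers and bars for mean and SD (n = 3). Cipc lies higher, and Usp2, Il10, Maf and Thra lie lower, in every CD11chiMinclehi library than in any CD11cloMinclelo library, and none of the 8 was called without the replicate block.

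Other routes that are known to induce Bhlhe40 or Per1 were described by lists of responsive genes. Of 16 immediate-early genes, which report on recent stimulation and on the handling of cells, 0 rose and 0 fell, with a median log2 fold change of -0.03. Fos averaged 727 ± 12.4 TPM in CD11chiMinclehi macrophages and 746 ± 60.3 TPM in CD11cloMinclelo macrophages. Junb averaged 703 ± 6.46 TPM in CD11chiMinclehi and 706 ± 56.4 TPM in CD11cloMinclelo macrophages, and Dusp1 averaged 679.9 ± 3.53 TPM in CD11chiMinclehi and 687 ± 68.0 TPM in CD11cloMinclelo macrophages. These genes were thus abundant in both subsets. Ier2 fell only with the block (adjusted p = 0.264 in limma, and 0.0144 with the block). Of 8 glucocorticoid-induced genes 0 rose and 0 fell, with a median of -0.15. The groups did not overlap for 5 of the 8, against 18.5% of all genes. An unadjusted p under 0.05 in limma was reached by 1 on the higher side, Sgk1, and by 2 on the lower side, Cebpd and Fkbp5. Of all genes, 6.44% reached it on the higher side and 6.45% on the lower side. Cebpd averaged 36.9 ± 2.93 TPM in CD11chiMinclehi and 53.1 ± 3.55 TPM in CD11cloMinclelo macrophages (adjusted p = 0.109, limma), and was not called in either fit. Sgk1, a kinase gene, averaged 389 ± 12.7 TPM in CD11chiMinclehi macrophages and 319 ± 35.1 TPM in CD11cloMinclelo macrophages (adjusted p = 0.155 in limma, and 0.0369 with the block). Fkbp5, a co-chaperone gene of the glucocorticoid receptor, averaged 34.9 ± 6.49 TPM in CD11chiMinclehi macrophages and 53.6 ± 11.2 TPM in CD11cloMinclelo macrophages (adjusted p = 0.262 in limma, and 0.0472 with the block). Tsc22d3 and Errfi1 were not called in either fit.

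Among 11 hypoxia-induced genes 1 rose and 0 fell, with 10 of 11 above 0 and a median of 0.13 on the log2 scale. An unadjusted p under 0.05 in limma was reached by 2 on the higher side, Vegfa and Ndrg1, and by 1 on the lower side, Adm. Of all genes, 6.44% reached that level on the higher side and 6.45% on the lower side. Vegfa, the gene of the angiogenic factor VEGF-A, was at 215, 195 and 182 TPM in CD11chiMinclehi libraries, against 105, 115 and 94.95 TPM in CD11cloMinclelo libraries. The groups were well separated, and Vegfa rose with a log2 fold change of 0.90 ± 0.09 (adjusted p = 0.0115, limma). Ldha and Pgk1, glycolytic genes that respond to low oxygen in many cells, were more abundant on the list. They had log2 fold changes of 0.08 ± 0.04 and 0.17 ± 0.08, neither called. Ndrg1 was at 21.0, 27.8 and 17.8 TPM in CD11chiMinclehi libraries, against 7.55, 14.4 and 1.23 TPM in CD11cloMinclelo libraries. Its groups did not overlap, and its log2 fold change was 1.78 ± 0.64 (adjusted p = 0.294, limma), not called in either fit. The single gene below 0 was Adm, which encodes the vasodilator peptide adrenomedullin. Adm was at 0.781, 2.49 and 5.83 TPM in CD11chiMinclehi libraries, against 4.24, 12.5 and 16.6 TPM in CD11cloMinclelo libraries. It was lower in each numbered pair although the groups overlapped, with a log2 fold change of -1.63 ± 0.63 (adjusted p = 0.327, limma). Vegfa was the only one of the 11 called.

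The genes whose pattern over the 6 libraries was most like that of Bhlhe40 were Rab3d, Ldlrad3, St6galnac6, Prkag2 and Tusc3. Likeness was the root mean square difference of log2(TPM + 1) after centring each gene, among 9673 candidates with a mean of at least 10 TPM. It was 0.05 for Rab3d, a GTPase gene of secretory vesicles, which averaged 113 ± 6.03 TPM in CD11chiMinclehi macrophages and 78.6 ± 6.54 TPM in CD11cloMinclelo macrophages. For the other four it ran from 0.06 to 0.07. St6galnac6, a sialyltransferase gene, averaged 94.8 ± 8.18 TPM in CD11chiMinclehi macrophages and 63.0 ± 4.17 TPM in CD11cloMinclelo macrophages. None of the other clock genes was among these 5, and Per2, with a mean under 10 TPM, was not a candidate.

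The libraries were checked for cell identity, since clock genes are expressed in nearly every cell type. The estimated depth was 7.01 to 8.14 M reads a library, where M stands for mega. The 7 macrophage markers, with Cd68, Csf1r and Adgre1 the most abundant, summed to 2584 to 2668 TPM in CD11chiMinclehi and 2600 to 2908 TPM in CD11cloMinclelo libraries. With the block, Adgre1 (adjusted p = 0.25 in limma, and 0.0422 with the block) and Fcgr1 (0.0739, and 0.0464 with the block) were lower in CD11chiMinclehi macrophages. Of the 7 macrophage markers 5 had a log2 fold change below 0 and 2 above it. Those above were Cd68, at 0.11 ± 0.05 and without overlap, and Itgam, at 0.21 ± 0.14, neither called in either fit. Kupffer cell markers moved with the subsets. All 5 had lower means in CD11chiMinclehi macrophages, where they summed to 305 to 634 TPM, against 1014 to 1732 TPM in CD11cloMinclelo macrophages. Of these 5 none was called without the block and 3, Clec4f, Vsig4 and Cd5l, fell with it. Marco overlapped between the groups and was higher in CD11chiMinclehi library 1, at 50.8 TPM, than in CD11cloMinclelo library 1, at 27.3 TPM. Timd4 is the gene of the Tim4 protein excluded by the sort. It was listed at 0, 3.19 and 0 TPM in CD11chiMinclehi libraries and at 0.814, 3.77 and 2.45 TPM in CD11cloMinclelo libraries. Hepatocyte markers, led by Trf, Alb and Apoa1, summed to 1945 to 3161 TPM in CD11chiMinclehi and 2233 to 2929 TPM in CD11cloMinclelo libraries, so hepatocyte transcripts were present in both. Of these 10 markers, 9 had a log2 fold change below 0. Only Cyp2e1 did not overlap between the groups, on the lower side, with a log2 fold change of -0.72 ± 0.19 (adjusted p = 0.139, limma), and it was not called in either fit. The 1 above 0 was Fgb at 0.06 ± 0.29. The 5 stellate cell markers in the table summed to 87.9 to 115 TPM in CD11chiMinclehi and 128 to 184 TPM in CD11cloMinclelo libraries. Most of each sum was Dcn, which averaged 76.0 TPM in CD11chiMinclehi and 120 TPM in CD11cloMinclelo macrophages and fell (adjusted p = 0.0253, limma). Only Dcn of the 5 did not overlap between the groups. The stellate list had 4 markers below 0 and 1 above it, Pdgfrb at 0.64 ± 0.37, not called in either fit. The summed levels of the endothelial markers (led by Clec4g, Pecam1 and Oit3), monocyte markers (Ccr2, Chil3 and Plac8), neutrophil markers (Csf3r, S100a8 and S100a9), B cell markers (Ighm, Cd79b and Cd79a) and dendritic cell markers (Ccr7, Cd209a and Flt3) overlapped between the subsets, as did those of the T and NK cell markers (Nkg7, Trac and Cd3g). Single markers of these lists did separate the subsets. Cdh5, an endothelial cadherin gene, was at 2.72, 5.49 and 9.33 TPM in CD11chiMinclehi libraries, against 16.1, 19.8 and 41.5 TPM in CD11cloMinclelo libraries (log2 fold change -1.97 ± 0.47, adjusted p = 0.112 in limma, and 0.0126 with the block). Plac8, a monocyte marker, was at 20.1, 71.8 and 43.8 TPM in CD11chiMinclehi libraries, against 119.6, 179 and 109 TPM in CD11cloMinclelo libraries (log2 fold change -1.71 ± 0.41, adjusted p = 0.115 in limma, and 0.015 with the block). Mmp8, a neutrophil collagenase gene, went the other way, with 75.0, 64.5 and 61.9 TPM in CD11chiMinclehi libraries, against 45.0, 26.8 and 35.9 TPM in CD11cloMinclelo libraries (log2 fold change 0.91 ± 0.19, adjusted p = 0.0739 in limma, and 0.0211 with the block). Its list was mixed, with 4 of 7 neutrophil markers above 0 and 3 below it. Those below were Retnlg at -1.61 ± 1.21, S100a9 at -0.62 ± 1.25 and Csf3r at -0.09 ± 0.07. Pecam1, an endothelial adhesion gene, did not overlap either, on the lower side, and was not called in either fit (log2 fold change -0.74 ± 0.23). The endothelial list was mixed, with 5 of 8 markers below 0 and 3 above it. Those above were Lyve1 at 0.75 ± 0.64, Oit3 at 0.73 ± 0.67 and Clec4g at 0.37 ± 0.54, none called in either fit. The part of these cells in the differences of the clock genes was not tested.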

How the data were processed

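RNA-seq of sorted liver macrophages was analysed in 6 libraries, grouped by their titles. The authors selected polyadenylated RNA, prepared directional libraries, trimmed reads with Trimmomatic 0.39.0, aligned them with HISAT2 2.2.1 (GRCm38), removed PCR duplicates with Picard and counted with featureCounts 2.0.1. TPM is the deposited unit, which the authors computed from these counts. TPM values compare genes per length but keep no depth, so reads were estimated from the step between low values (within 0.05 of a whole multiple for 72.8% to 78.3%) using GENCODE M21 exon lengths, with counting error only behind their intervals. The lowest mean in the table was 1.00 TPM and the highest single value was 1382 TPM. Duplicate removal without molecular identifiers compresses abundant genes.

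Log2(TPM + 1) was fitted with limma 3.58.1 (R 4.3.3) and a mean-variance trend over all 16503 genes, two-sided, with Benjamini-Hochberg adjustment. This fold change understates low genes. The limma script was tested on simulated data. Replicate numbers occur in both groups. Deviations from the group means over all genes correlated at 0.36, 0.20 and 0.12 for equal numbers, so the numbers were taken to pair libraries. The fit with the number as a block is given where it changes a call. Calls are those of the fit without the block unless the block is named. The pairing rests on the values and the titles, not on a statement of the study about its RNA-seq. For other measurements of these subsets the study used paired t-tests. Alternatives were median-of-ratios scaling, a pseudocount of 0.1, a filter at a mean of 5 TPM, no trend, the block and leaving out each library.

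The genes and lists were chosen with earlier results of these data known. All 10 genes are named, and of each further list its called genes or, without any, the 3 most abundant. Names beyond this rule, such as Adm, Pecam1 and genes called only with the block, were added after their values were seen. Some list genes are not reported here and were left out of the counts, so a short list need not stand for its theme. Ero1a was matched by its older symbol. List genes not in the table were Arntl2, Npas2, Rorb, Hlf, Fbxl21, Ca12, Ly6g and Reln.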

Additional observations from a re-analysis of the deposited data

How the results depend on the processing

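Directions under the alternatives were computed for the 10 genes only. Bhlhe40 kept its sign in 11 of 11 alternatives and its call in 5, and lost the call without the variance trend (adjusted p = 0.23, limma) and in 5 of the 6 fits that left out a library. Bhlhe41 kept its sign in 11 of 11 and passed only with the filter at 5 TPM, where 2 of the 10 genes were called higher. Nr1d2 and Clock, neither called, had the other sign in 2 of 11 alternatives each. Without the trend, 0 of the 10 genes, 8 of all genes higher, 11 of all genes lower and 0 genes for the replicate number were called, against 1, 127, 75 and 154. With the replicate number as a block the counts of all genes were 275 higher and 289 lower, and the count of the 10 genes stayed at 1. It changed no call among the 10. With a pseudocount of 0.1 the replicate number called 95 genes. Leaving out a library gave 0 to 1 of the 10 genes higher, 4 to 40 of all genes higher, 2 to 52 of all genes lower and 0 genes for the replicate number, with genes at 0 in all remaining libraries left out. These fits hold 5 libraries, and counts at this size depend strongly on the number of libraries. Depth limits Per2 most, with as few as 30 estimated reads.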
